A study of Homo sapiens with 6 samples.

Results

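The purine group described here holds 10 genes: the phosphoribosyl pyrophosphate synthetases PRPS1 and PRPS2, the salvage enzymes HPRT1 and APRT, and the enzymes of de novo purine synthesis PPAT, GART, PFAS, PAICS, ADSL and ATIC. All probe sets annotated to these genes by symbol or Entrez gene ID were taken, which gave 15 of the 45033 probe sets and 10 of the 23595 named genes on the array. HPRT1 and PRPS2 entered the group because their intensities were high in the arrays of SET8 shRNA cells, so their values in comparisons with those arrays are given as a description, with no test. The other 8 genes were added as members of the same pathway.

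Expression was measured in HEK293 cells, a human embryonic kidney line transformed with adenovirus DNA, on 6 one-colour NimbleGen arrays, 2 per group. The groups were cells transfected with SET8 shRNA and given Wnt3a conditioned medium, cells transfected with control shRNA and given Wnt3a conditioned medium, and cells transfected with control shRNA and given control conditioned medium. The sample descriptions say shRNA, while the sample titles and the design text write si or siRNA, and which reagent was used was not settled here. All groups were transfected, for about 40 hours, and all received a conditioned medium, for 7 hours. KMT5A, the gene of SET8 and the target of the shRNA, had log2 intensities of 8.97 and 9.65 in SET8 shRNA cells, 11.20 and 10.53 in control shRNA cells in Wnt3a medium, and 11.03 and 10.75 in control medium. It was lower in both SET8 arrays in both of its probe sets, with log2 fold changes of -1.56 (SE 0.34, limma adjusted p = 0.24) and -1.11 (SE 0.28, limma adjusted p = 0.33). SET8 is the methyltransferase that places a single methyl group on lysine 20 of histone H4, and Wnt3a is a secreted ligand of the beta-catenin pathway. No array of SET8 shRNA cells in control medium was among those used here, so a Wnt3a response under SET8 shRNA could not be separated from the effect of the shRNA. The labels give 1 cell line, number the replicates 1 and 2, and do not say that these were separate cultures, so the errors below measure the spread between these arrays, which may be technical.

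Purine nucleotides are built on phosphoribosyl pyrophosphate (PRPP), which the PRPS enzymes make from ribose 5-phosphate and ATP. The de novo route adds atoms to PRPP step by step until inosine monophosphate (IMP) is formed, while salvage enzymes join a free base to PRPP in a single step. HPRT1 recovers hypoxanthine and guanine in this way, its inherited loss causes Lesch-Nyhan disease, and its mRNA is a common internal standard in expression studies.

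HPRT1, PRPS2 and PRPS1 all lie on the X chromosome. The sequences before their transcription starts are shown because HPRT1 and PRPS2 are the genes with high values after SET8 shRNA and PRPS1 is the close paralogue of PRPS2 with no such difference. Each is the 250 bases before the RefSeq start in GRCh38.p14, on the plus strand, at chrX:134459915-134460164 for HPRT1, chrX:12791162-12791411 for PRPS2 and chrX:107628260-107628509 for PRPS1. Capitals mark the letters of a GC box, GGGCGG, or its reverse complement, CCGCCC.
HPRT1: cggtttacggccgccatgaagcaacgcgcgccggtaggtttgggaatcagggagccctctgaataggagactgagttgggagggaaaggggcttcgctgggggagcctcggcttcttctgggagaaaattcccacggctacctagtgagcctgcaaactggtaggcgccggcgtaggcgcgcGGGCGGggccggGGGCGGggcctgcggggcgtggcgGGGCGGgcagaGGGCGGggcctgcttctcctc
PRPS2: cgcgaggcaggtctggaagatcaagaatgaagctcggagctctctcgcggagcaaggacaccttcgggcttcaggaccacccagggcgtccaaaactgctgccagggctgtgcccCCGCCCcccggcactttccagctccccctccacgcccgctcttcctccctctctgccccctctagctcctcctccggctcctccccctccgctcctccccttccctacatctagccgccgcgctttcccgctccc
PRPS1: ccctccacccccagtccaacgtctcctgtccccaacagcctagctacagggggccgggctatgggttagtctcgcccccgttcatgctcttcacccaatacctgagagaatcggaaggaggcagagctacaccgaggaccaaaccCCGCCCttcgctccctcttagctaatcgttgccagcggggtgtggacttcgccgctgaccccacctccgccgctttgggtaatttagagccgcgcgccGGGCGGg
The HPRT1 window held 4 GC boxes, the PRPS2 window 1 and the PRPS1 window 2, and G or C made up 68.8%, 67.6% and 63.6% of their bases, against a median of 58.0% over 35116 human windows of the same length. RefSeq windows were given for 9 of the 10 genes, not for ADSL. At least 1 window of each of the 9 genes held a GC box, which 42.6% of all windows hold. That share is per window, and GART and PAICS, which have several windows, also had windows without a GC box. The E-box CACGTG, found in 6.34% of all windows, was present before PPAT and ATIC, and neither HPRT1, PRPS1 nor PRPS2 had it. The TATA letters TATAAA, read on both strands and found in 10.7% of all windows, occurred in 1 member, GART, and the TCF/LEF letters CTTTGAT, also read on both strands and found in 2.26%, occurred in none of the 9. HPRT1 and PRPS2 shared the GC box with at least 1 window of every other member that had windows.

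HPRT1 and PRPS2 were about 5-fold brighter in SET8 shRNA cells than in control shRNA cells in the same Wnt3a medium, while the remaining 13 probe sets of the group stayed within a log2 fold change of -0.25 to 0.36. No member passed the test between Wnt3a and control medium. Values below are log2 intensities as the authors summarised them, 1 value per probe set and array, and probe set positions are in hg18. All 15 probe sets passed the filter on dim signals, which asks for a value above the median of the array (log2 7.63 to 7.79) in at least 2 of the 6 arrays. A PPAT probe set was above it in 4 arrays and the other 14 in all 6. All 15 were above the random control probes (log2 4.66 to 4.84) in every array. Intensity depends on the probe as well as on the RNA, so levels were not ranked between genes, and in a bulk sample fewer cells expressing a gene and less RNA per cell cannot be told apart.

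**Figure D1:**
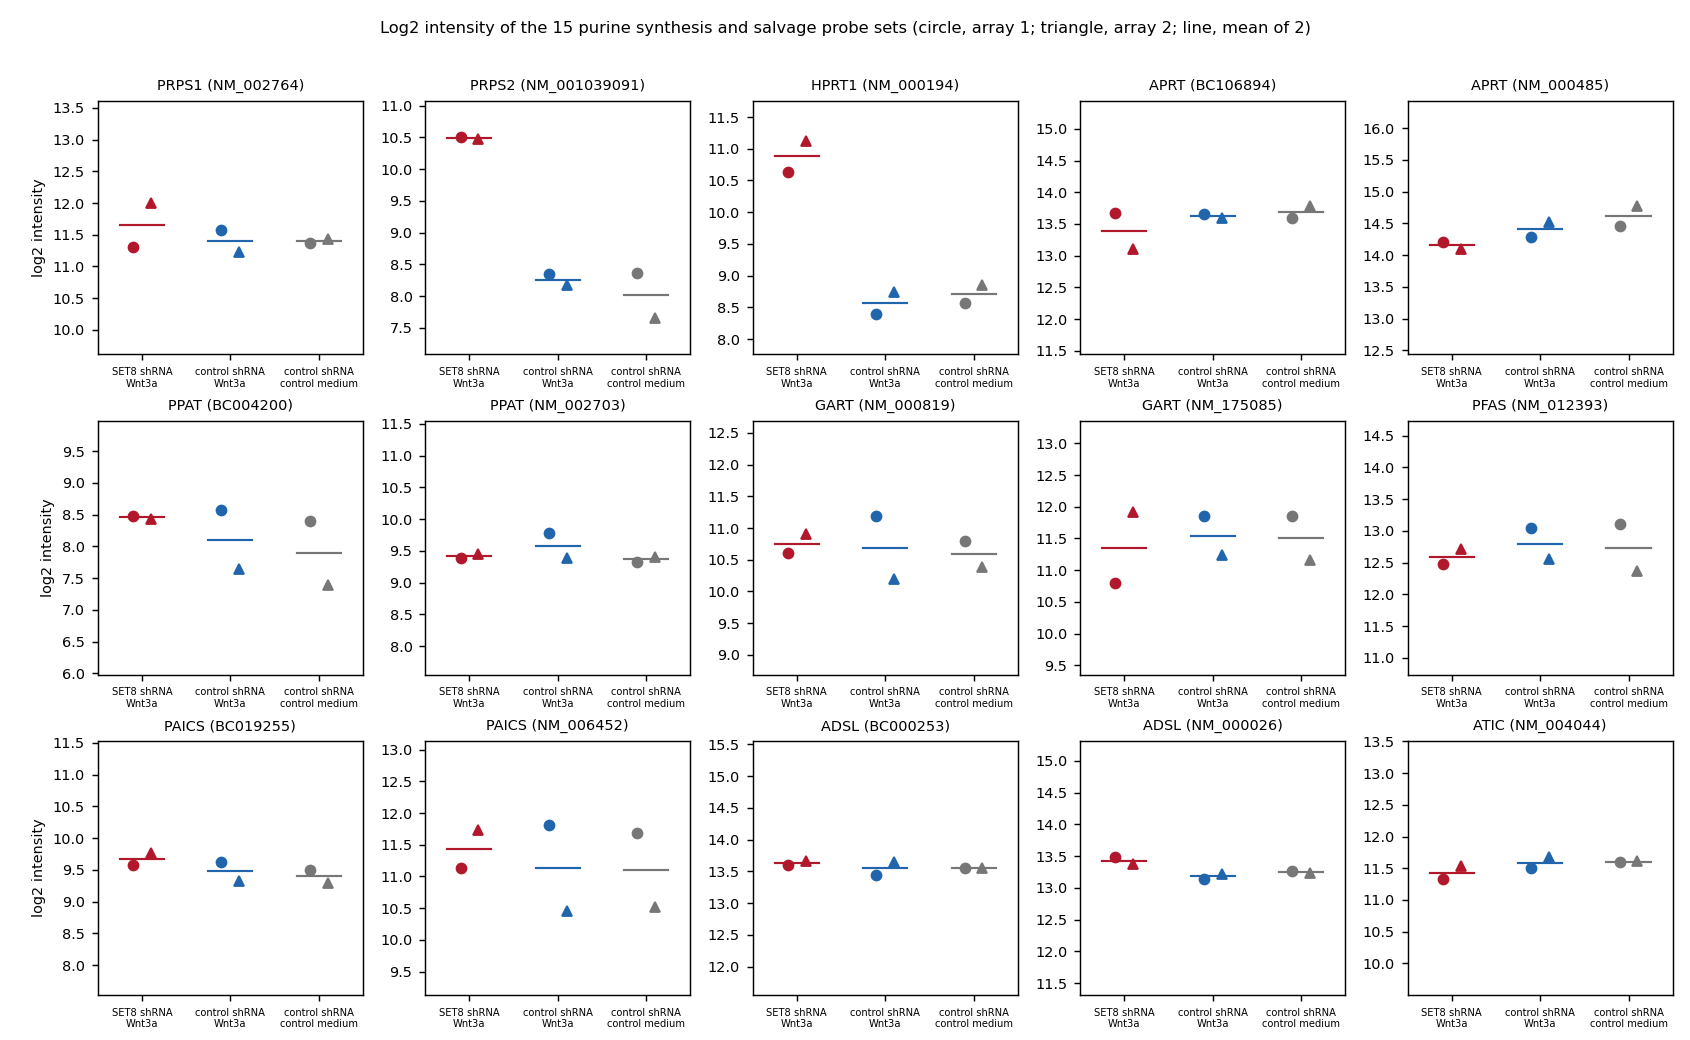
Log2 intensity (vertical axis, of equal height in every panel) of each of the 15 probe sets in the 2 arrays of SET8 shRNA cells in Wnt3a medium (red), control shRNA cells in Wnt3a medium (blue) and control shRNA cells in control medium (grey); circles are array 1, triangles array 2 and lines the mean of 2. PRPS2 and HPRT1 stand apart in red, at 10.48 or above against 8.86 or below in the other groups, and in the other 13 panels the group means lie at most 0.56 apart.

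Among the PRPP synthetases, PRPS2 (probe set NM_001039091, X:12719413-12752263 in hg18) had 10.50 and 10.48 in SET8 shRNA cells, 8.35 and 8.17 in control shRNA cells in Wnt3a medium, and 8.37 and 7.66 in control shRNA cells in control medium. Both SET8 arrays were above all 4 others, and the smallest gap to a Wnt3a array was 2.12. The mean difference in Wnt3a medium was 2.22 on the log2 scale, or 4.67-fold, with a 95% interval of 1.55 to 2.90 given as a description. PRPS1 (NM_002764, X:106758414-106780912) makes the same product and is the isoform whose overactivity causes inherited gout. Its values were 11.31 and 12.00 in SET8 shRNA cells, 11.58 and 11.23 in Wnt3a medium, and 11.37 and 11.44 in control medium. These groups overlapped, and the log2 fold change of SET8 shRNA was 0.25 with an interval of -0.45 to 0.95 (limma, adjusted p = 0.96 over all probe sets tested). PRPS2 was chosen for its size in these arrays, so its interval cannot be set against that of PRPS1, and a difference between them was not tested. Probe sequences were not used here, so whether probes for PRPS2 also bind PRPS1 RNA was not tested. Of the other genes of this step, PRPSAP1 and PRPSAP2, which bind the synthetases, had log2 fold changes of -0.03 and 0.07, and PRPS1L1, the testis form, -0.11.

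For the salvage enzymes, HPRT1 (NM_000194, X:133421922-133462362) had 10.64 and 11.13 in SET8 shRNA cells, 8.39 and 8.74 in control shRNA cells in Wnt3a medium, and 8.57 and 8.86 in control medium. The SET8 arrays again lay above all others, with a narrowest gap of 1.90 to the Wnt3a arrays. The mean difference was 2.33 (5.01-fold, interval 1.67 to 2.98). APRT, which recovers adenine, did not share this pattern. Its brighter probe set (NM_000485, 16:87403377-87405843) had 14.21 and 14.10 in SET8 shRNA cells, 14.29 and 14.52 in Wnt3a medium, and 14.46 and 14.77 in control medium. The SET8 values were the lowest of the 6, but the log2 fold change against Wnt3a medium, -0.25 (interval -0.81 to 0.32, limma adjusted p = 0.94), did not pass. The second APRT probe set (BC106894, 16:87403500-87405832) had 13.68 and 13.11 in SET8 shRNA cells, 13.66 and 13.60 in Wnt3a medium, and 13.60 and 13.78 in control medium, with a log2 fold change of -0.24, and its groups overlapped. A homologue of HPRT1, PRTFDC1, looked up after the HPRT1 values were seen, was too dim to be tested, and its probe sets differed by 0.09 and 0.26.

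De novo synthesis starts with PPAT, the amidotransferase that commits PRPP to purines and the rate-limiting step of the route. The brighter PPAT probe set (NM_002703, 4:56954284-56996602) had 9.38 and 9.45 in SET8 shRNA cells, 9.78 and 9.38 in Wnt3a medium, and 9.32 and 9.41 in control medium, with a log2 fold change of -0.17 for SET8 shRNA (interval -0.73 to 0.40). The other (BC004200, 4:56955797-56996431) had 8.48 and 8.44 in SET8 shRNA cells, 8.57 and 7.64 in Wnt3a medium, and 8.40 and 7.39 in control medium, and its fold change had the opposite sign, at 0.36 (interval -0.62 to 1.34). Neither PPAT probe set separated SET8 from control shRNA arrays in Wnt3a medium. PAICS, which carries out a carboxylation and the next ligation, is transcribed away from PPAT from a start only 95 bases away in the array annotation. Its brighter probe set (NM_006452, 4:56996697-57022284) had 11.14 and 11.73 in SET8 shRNA cells, 11.81 and 10.46 in Wnt3a medium, and 11.68 and 10.52 in control medium. The arrays of each control shRNA group differed by more than 1 log2 unit in this probe set, and its fold change of 0.30 had an interval of -0.96 to 1.56. The dimmer set (BC019255, 4:56997074-57020584) varied less, with 9.57 and 9.77 in SET8 shRNA cells, 9.62 and 9.33 in Wnt3a medium, and 9.50 and 9.29 in control medium, and gave 0.20 (SE 0.24).

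GART catalyses several early steps on 1 polypeptide, and PFAS adds the amide nitrogen between them. GART probe set NM_175085 (21:33818185-33836286) had 10.80 and 11.91 in SET8 shRNA cells, 11.85 and 11.24 in Wnt3a medium, and 11.85 and 11.16 in control medium. Probe set NM_000819 (21:33798138-33836286) had 10.61 and 10.90 in SET8 shRNA cells, 11.19 and 10.19 in Wnt3a medium, and 10.80 and 10.38 in control medium. These transcripts start together and end at different places, and their log2 fold changes for SET8 shRNA were -0.19 (SE 0.44) and 0.06 (SE 0.36). PFAS (NM_012393, 17:8093361-8114528) had 12.48 and 12.71 in SET8 shRNA cells, 13.04 and 12.56 in Wnt3a medium, and 13.11 and 12.36 in control medium, a log2 fold change of -0.21 (interval -0.96 to 0.55). In all 3 probe sets the values of the groups overlapped.

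The last steps belong to ADSL, which splits off fumarate both on the way to IMP and on the way to AMP, and ATIC, which closes the ring to IMP. ADSL probe set NM_000026 (22:39072508-39092698) had 13.49 and 13.37 in SET8 shRNA cells, 13.14 and 13.22 in Wnt3a medium, and 13.27 and 13.24 in control medium. Here the SET8 arrays were the highest of the 6, with a log2 fold change of 0.25 (interval -0.27 to 0.76) whose limma adjusted p of 0.93 was the smallest among the 13 probe sets. The second ADSL probe set (BC000253, 22:39072479-39092504) had 13.60 and 13.66 in SET8 shRNA cells, 13.45 and 13.65 in Wnt3a medium, and 13.55 and 13.56 in control medium, and gave 0.08 (interval -0.45 to 0.60) with overlapping groups. ATIC (NM_004044, 2:215885080-215922724) had 11.33 and 11.53 in SET8 shRNA cells, 11.50 and 11.68 in Wnt3a medium, and 11.60 and 11.61 in control medium, a log2 fold change of -0.16 (interval -0.69 to 0.37).

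Set over the 8 genes other than HPRT1 and PRPS2, 7 of 13 probe sets had a log2 fold change above 0 for SET8 shRNA and 6 below. The median of the 8 genes, 1 probe set each, was -0.16, and that of all 10 genes -0.04, beside 0.01 over all 23808 probe sets tested. None of the 13 passed limma at an adjusted p under 0.05, and none had an unadjusted p under 0.05. The background in this comparison was 0% called (0 of 23808), with 1705 probe sets at an unadjusted p under 0.05, of which 894 were higher and 811 lower. The intervals of the 13 ran from -1.21 to 1.56, and 10 of them stayed within 1 log2 unit of 0. The other 3, PPAT BC004200, GART NM_175085 and PAICS NM_006452, reached past a 2-fold difference, and they had the largest standard errors of the 15. Groups did not overlap for 4 of the 15 probe sets (HPRT1, PRPS2 and an ADSL set higher, an APRT set lower), beside 34.1% of all probe sets tested. The arrays of the groups were at least 1.5-fold apart throughout for 2 of the 15, HPRT1 and PRPS2, both higher, beside 3.16% of all probe sets tested in either direction. These were chosen on this contrast, and nothing is read from that count.

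**Figure D2:**
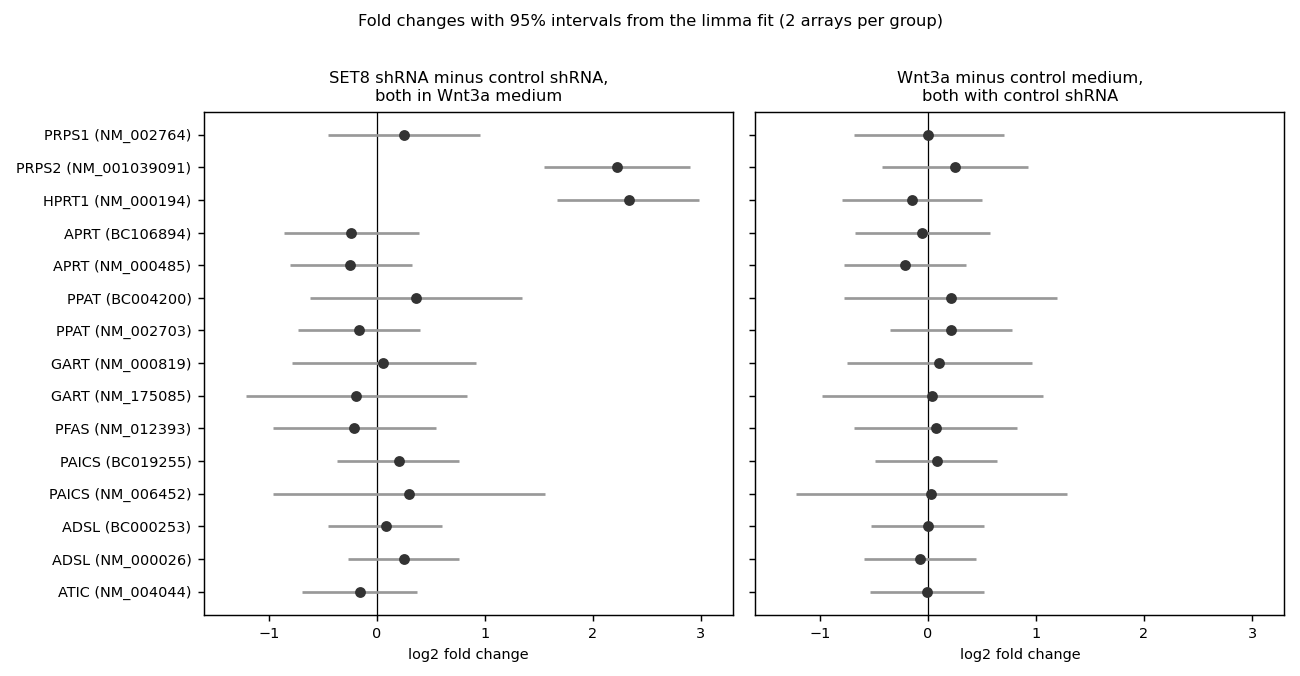
Log2 fold change (horizontal axis) and 95% interval from the limma fit for each of the 15 probe sets, for SET8 shRNA against control shRNA in Wnt3a medium (left) and for Wnt3a against control medium with control shRNA (right). On the left PRPS2 at 2.22 and HPRT1 at 2.33, which were chosen for these values, lie far from 0, and the intervals of all other probe sets in both panels include 0.

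Wnt3a medium against control medium, both with control shRNA, is the comparison whose fold changes do not use the SET8 arrays; its intervals and p-values share the spread estimated over all 6. None of the 15 probe sets was called, beside 0% of all tested (limma, adjusted p under 0.05; 510 of 23808 had an unadjusted p under 0.05, none of the 13 among them). PRPS2 had a log2 fold change of 0.25 (interval -0.43 to 0.93) and HPRT1 -0.15 (interval -0.80 to 0.50), so a 2-fold response lay outside both intervals; the Wnt3a arrays also served the comparison that chose these genes. PRPS1 gave 0.00, both PPAT probe sets 0.21, and the brighter APRT probe set -0.21. The 13 probe sets without HPRT1 and PRPS2 ran from -0.21 to 0.21, 8 above 0 and 5 below, with a median of 0.02 over the 8 genes, equal to the 0.02 of all probe sets tested. In 1 of the 15, ADSL NM_000026, both Wnt3a arrays were below both control arrays, beside 21.1% of all probe sets tested that did not overlap in either direction. None of the 15 was at least 1.5-fold apart in all arrays, beside 0.643% of all tested.

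The combined comparison, SET8 shRNA cells in Wnt3a medium against control shRNA cells in control medium, shares its arrays with both comparisons above. HPRT1 differed by 2.17 and PRPS2 by 2.47 on the log2 scale. The other 13 probe sets ran from -0.46 (APRT NM_000485) to 0.56 (PPAT BC004200), with a median of -0.05 over the 8 genes and a smallest limma adjusted p of 0.60. None was called, beside 0.0504% of all probe sets tested (12 of 23808, 6 higher and 6 lower), and none of the 13 had an unadjusted p under 0.05, beside 2512 of all tested. Groups did not overlap for 8 of the 15, beside 39.7% of all probe sets tested, and 2, HPRT1 and PRPS2, were at least 1.5-fold apart in all arrays, beside 5.02%.

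HPRT1 and PRPS2 ranked 3 and 4 by log2 fold change for SET8 shRNA among the 23808 probe sets tested. In all, 13 probe sets exceeded 2 on that scale, those of VCL (2 sets), HPRT1, PRPS2, NPPB, PIANP, PPARG, EIF1AX, CALCB, TMEM19, ATP6V1D (2 sets) and LCK. Of these, 3 lie on the X chromosome, HPRT1, PRPS2 and EIF1AX. EIF1AX and the LCK set of these 13 were above the array median only in the 2 SET8 arrays, and so passed the filter through the group where they were high. The 818 X-linked probe sets tested had a median log2 fold change of 0.00, and the 22990 on other chromosomes 0.01. Neighbours were taken by the brightest probe set of each gene, leaving out unnamed probe sets and those with placeholder symbols (LOC or CXorf). Within 500 kb of HPRT1 this left 9 genes, of which 5 were tested, with log2 fold changes of -0.41 to 0.55. The nearest tested were MIR503HG, a long non-coding RNA 43.8 kb after HPRT1, at 0.55, and PLAC1, 65.2 kb after it, at -0.19. Near PRPS2 only TMSB4X, the actin-binding thymosin 150.9 kb away, was bright enough to test among the 6 genes so taken, at -0.23. None of the tested genes so taken within 500 kb of HPRT1, PRPS2 or PRPS1 differed by more than 1 log2 unit.

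Likeness over the 6 arrays was measured as the root mean square distance between log2 profiles, each centred on its own mean, among the probe sets tested. The genes closest to HPRT1 were TMEM19 (0.143), ATP6V1D (0.193), TDG (0.246), CEND1 (0.259) and CDK6 (0.285). Those closest to PRPS2 were PPARG (0.181), STX6 (0.261), VCL (0.261), CEND1 (0.276) and LCK (0.307). HPRT1 and PRPS2 lay 0.396 apart, rank 22 in the order from HPRT1 and rank 19 in that from PRPS2, in a set of 11763 genes. Both were chosen for high values in the SET8 arrays, which by itself brings their profiles close, so nothing is read from these ranks. Within the SET8 group HPRT1 was lower in array 1 than in array 2, by 0.49, and PRPS2 was equal to within 0.02. TDG, STX6 and the LCK probe set used here were above the array median in only 2 of 6 arrays, the 2 of SET8 shRNA cells.

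Other genes that feed or draw on purine synthesis were counted in the comparison of SET8 with control shRNA in Wnt3a medium, with the brightest probe set of each gene. Among 23 genes of purine interconversion and breakdown, 18 were tested and none was called in either direction (0% of all probe sets tested were called), with a median of -0.04. The lowest was GUK1, the kinase that turns GMP into GDP. It had 12.42 and 12.48 in SET8 shRNA cells, 13.62 and 13.49 in Wnt3a medium, and 13.49 and 13.70 in control medium, a log2 fold change of -1.10 (SE 0.23, limma adjusted p = 0.22). Both SET8 arrays were below the 4 others by about 1 log2 unit or more, and a second GUK1 probe set gave -0.72. PNP, the nucleoside phosphorylase that releases the bases HPRT1 recovers, was highest at 0.29 with AMPD2, an AMP deaminase, at 0.21.

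The pentose phosphate genes, which make the ribose 5-phosphate used by PRPS enzymes, were all 8 tested, none called, with a median of 0.04 and extremes of RPE at 0.32, RPIA at 0.29, TKT at -0.15 and RBKS at -0.13. Of 15 folate one-carbon genes, which supply carbon atoms of the purine ring, 14 were tested and none called, with a median of 0.00. MTHFS at -0.51 was lowest, and ALDH1L1 at 0.23 and MTHFD2 at 0.16 were highest. The 12 genes of pyrimidine and NAD synthesis, several of which also use PRPP, were all tested and none called, with a median of 0.01. NAPRT, which joins nicotinic acid to PRPP, was lowest at -0.77, its 5 probe sets all negative (-0.77 to -0.36), and DHODH, of de novo pyrimidine synthesis, gave -0.25. UPRT, annotated as a uracil phosphoribosyltransferase, was highest at 0.51 in its brightest set, with -0.21 to 0.04 in its others, and NAMPT gave 0.27.

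Deoxynucleotide supply was represented by 6 genes, 4 of them tested and none called, with a median of -0.17. RRM2, the cell cycle regulated subunit of ribonucleotide reductase, gave -0.60 in its brighter probe set. Its other probe set had 8.89 and 9.49 in SET8 shRNA cells, 12.25 and 10.48 in Wnt3a medium, and 11.90 and 10.63 in control medium, a log2 fold change of -2.18 with an SE of 0.63 (limma adjusted p = 0.41). The groups of this RRM2 probe set did not overlap, yet control shRNA arrays 1 and 2 lay over 1 log2 unit apart. RRM1, the large subunit, gave -0.19, SAMHD1, a dNTP hydrolase, -0.15, and DGUOK, the mitochondrial deoxyguanosine kinase, 0.02 in its brightest probe set. The other DGUOK probe sets were all negative (-0.40 to -0.08).

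HPRT1 is often used to normalise expression, so 14 other common reference genes were set beside it. All were tested, none was called, and their median was -0.02. SDHA, of the respiratory chain, gave -0.29, and YWHAZ, a 14-3-3 protein, at 1.23 and PGK1, a glycolytic kinase, at 0.26 were highest. All 7 YWHAZ probe sets lay between 0.98 and 1.38, and their smallest limma adjusted p was 0.20. HPRT1, chosen for its difference between SET8 and control shRNA, had a larger one than any of the 14.

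**Figure D3:**
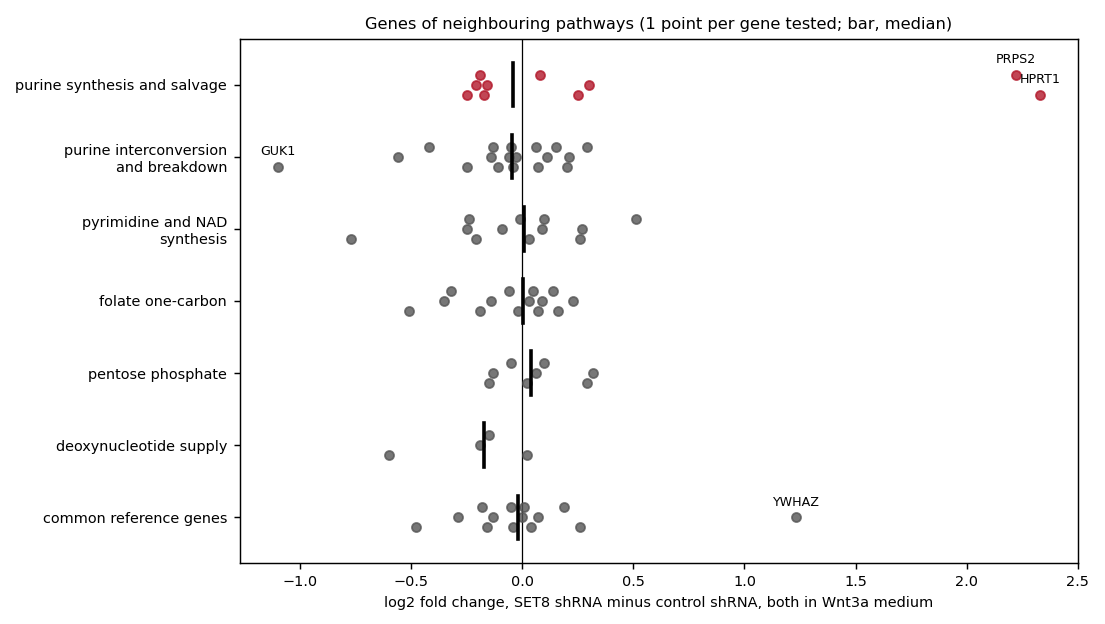
Log2 fold change of SET8 shRNA against control shRNA in Wnt3a medium (horizontal axis) for the purine genes (red) and genes of neighbouring pathways and common reference genes (grey), 1 point per gene tested, with the median of each list as a bar. HPRT1 at 2.33 and PRPS2 at 2.22, chosen for these values, lie to the right of all other points, GUK1 at -1.10 is the lowest, and all medians lie between -0.17 and 0.04.

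Of 9 markers chosen for HEK293, 7 were above the array median in all 6 arrays, among them KRT8, KRT18 and VIM. Fibroblast markers were so in 1 of 8 (COL1A1), blood cell markers in 1 of 7 (CD68) and hepatocyte markers in 0 of 3, while PTPRC, CD3E, PDGFRA and ALB were below the array median throughout. The haemoglobin genes HBA1 and HBA2 were above it in 5 and 4 arrays, COL3A1 in 2, and DCN and THY1 in 1 each. The summed intensity of the blood cell markers was lower in the SET8 arrays, at 1067 to 1161 in SET8 shRNA cells, 2325 to 2535 in Wnt3a medium and 1958 to 2642 in control medium. CD68, HBA1 and HBA2 carried that difference, with log2 fold changes for SET8 shRNA of -1.07, -1.65 and -1.12, while CD3E, a T cell marker, gave 0.53. That of the fibroblast markers, most of it from COL1A1, was 4623 to 5015 in SET8 shRNA cells, 6269 to 7145 in Wnt3a medium and 6016 to 6287 in control medium. For SET8 shRNA, COL1A1, COL1A2, COL3A1, PDGFRB and THY1 gave log2 fold changes of -0.50, -0.19, -0.39, -0.58 and -0.26. DCN, LUM and PDGFRA went the other way, at 0.34, 0.08 and 0.06. For Wnt3a against control medium, most single markers differed from the sum. COL1A1 and LUM gave log2 fold changes of 0.28 and 0.21 there. COL1A2 gave -1.58, COL3A1 -0.85, DCN -2.09, PDGFRA -0.49, PDGFRB -0.45 and THY1 -1.35. Only COL1A1 and COL3A1 of these were bright enough to test, and neither was called. The HEK293 markers summed to 65924 to 66353 in SET8 shRNA cells, 65052 to 67808 in Wnt3a medium and 68539 to 70773 in control medium. The part of other cell types in the values of HPRT1 and PRPS2 was not tested.

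The 2 arrays of a group differed in a pattern of their own. Over all probe sets tested, the difference of array 1 minus array 2 correlated between the control and Wnt3a groups (r = 0.75 across 23808 probe sets, which share arrays and are not independent) and ran against that of the SET8 group (r = -0.29 with each). Differences of over 2-fold between arrays of a group occurred in 1.86% of probe sets in the SET8 group, 8.98% in the Wnt3a group and 6.87% in the control group. For PAICS NM_006452 the difference was -0.59 in SET8 shRNA cells, 1.36 in Wnt3a medium and 1.15 in control medium. PPAT BC004200 showed 0.05 in SET8 shRNA cells, 0.93 in Wnt3a medium and 1.01 in control medium. GART NM_175085 showed -1.11 in SET8 shRNA cells, 0.61 in Wnt3a medium and 0.69 in control medium. The sign in the SET8 group was opposite to that in both control shRNA groups for PAICS and GART, and the same for PPAT. HPRT1 differed by -0.49 in SET8 shRNA cells, -0.35 in Wnt3a medium and -0.29 in control medium, and PRPS2 by 0.02, 0.18 and 0.71 in SET8 shRNA cells, Wnt3a medium and control medium.

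**Figure D4:**
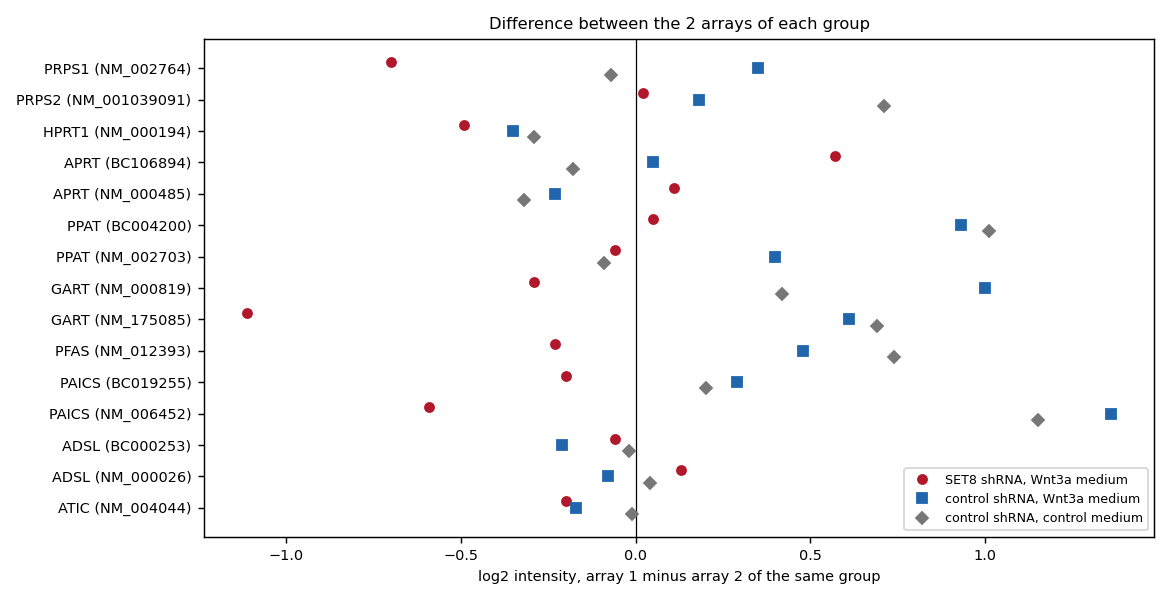
Log2 intensity of array 1 minus array 2 (horizontal axis) for each of the 15 probe sets in SET8 shRNA cells in Wnt3a medium (red circles), control shRNA cells in Wnt3a medium (blue squares) and control shRNA cells in control medium (grey diamonds). The probe sets of PPAT, GART, PFAS and PAICS lie mostly near or left of 0 in the red points, down to -1.11, and to the right of 0 in most of the blue and grey ones, up to 1.36.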

How the data were processed

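Total RNA of 6 HEK293 samples was hybridised to one-colour NimbleGen arrays, 2 per group, and groups were read from the labels. The authors deposited 1 linear intensity per probe set and array, summarised, per the submitters' processing notes, by RMA (the robust multi-array average), with positions in hg18 per the file headers. No RMA version is given in the sources used here. A series table deposited beside the array files holds the same intensity values. A deposited column named as an error was not used.

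The log2 of each intensity was used, with nothing added to it. Symbols were updated by Entrez gene ID through a RefSeq table (38916 of 45033 probe sets matched). Probe sets above the array median in at least 2 of 6 arrays (23808) were fitted with 3 group means in limma 3.58.1 (R 4.3.3, lmFit and eBayes), and p-values were adjusted by Benjamini-Hochberg over all of them; called means an adjusted p under 0.05. A gene with several probe sets is represented by the brightest in lists and medians. Exact permutation of 2 against 2 arrays cannot give a p under 0.333, so none is reported, and the number of arrays limits the precision. The fit was run on simulated data with independent noise in each array. That noise lacks the shared differences between arrays seen here, so the run does not show how the fit behaves on these arrays. Named are all members, the 2 highest and 2 lowest genes of each list, the 5 most alike genes and KMT5A, except a few list genes that are not reported here; other genes named were picked after their values were seen. The members and lists were chosen with earlier results of these data known. Same-numbered arrays were not treated as pairs, since the labels do not say that a number marks a shared batch and the differences between arrays 1 and 2 correlated at 0.75 between the control shRNA groups and -0.29 with the SET8 group. Alternatives changed the filter, offset, normalisation, spread estimate, replicate term, source of the values, probe set per gene, threshold and arrays used.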

Additional observations from a re-analysis of the deposited data

How the results depend on the processing

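HPRT1 kept a log2 fold change for SET8 shRNA of 2.08 to 2.57 and PRPS2 of 2.13 to 2.31 with each array left out in turn, and 2.28 to 2.34 and 2.17 to 2.22 under the other alternatives. No alternative called any of the 13 other probe sets or any member in the Wnt3a comparison. The number of probe sets called was unstable. For SET8 against control shRNA in Wnt3a medium it was 0 as reported, 15 with an intensity trend, 28 with only the 4 arrays of the comparison and 19 at an adjusted p under 0.1. Of these 1 (trend), 2 (4 arrays) and 1 (at 0.1) were members, from HPRT1 and PRPS2. For Wnt3a it was 0 as reported and 2 with a 60th percentile filter, with the trend or at 0.1. For SET8 shRNA with Wnt3a against control medium it was 12 as reported, 0 with no filter, 52 with the 60th percentile filter and 6 after quantile normalisation. With the trend it was 31, with only 4 arrays 230, at 0.1 156, and with a term for genomic span (added after the data were seen) 3. HPRT1 and PRPS2, 2 members, were called with the 60th percentile filter, the trend, 4 arrays and 0.1. These calls of HPRT1 and PRPS2 use the SET8 values for which both were chosen, so they show how the counts depend on the settings and are no test of either gene. Leaving out an array of the group outside a comparison repeats the fit on its 4 arrays, so it is no separate check. The replicate block gave 0 called in all 3 comparisons, and it changed no other call. Crossed pairing of the SET8 arrays, added after the data were seen, called 182, 3 and 792 probe sets in the SET8, Wnt3a and combined comparisons, with 2, 0 and 2 members. The median over the 10 genes ran from -0.15 to 0.23 for SET8, -0.05 to 0.24 for Wnt3a and -0.04 to 0.25 for the combined comparison; the highest came without SET8 array 1 (0.23) and without Wnt3a array 2 (0.24). Members at least 1.5-fold apart numbered 2 for SET8 and for the combined comparison under every alternative that kept all 6 arrays. This number rose in some cases with 1 array left out, where 2 arrays face 1 and the mark is easier to reach. The share over all probe sets was not computed there, so nothing is read from that rise. The ranges that follow are for the brightest probe set of each gene. With 1 array left out, the SET8 difference of PAICS ranged over -0.38 to 0.98, GART over -0.75 to 0.36 and PRPS1 over -0.10 to 0.60. That of PPAT ranged over -0.37 to 0.04, PFAS over -0.45 to 0.03 and ADSL over -0.03 to 0.18. In these probe sets the sign of the SET8 difference therefore rests on single arrays. ADSL NM_000026, the dimmer ADSL set, had both SET8 arrays above both Wnt3a arrays, so leaving out any 1 array keeps its sign. The brighter APRT probe set (-0.36 to -0.13) and ATIC (-0.26 to -0.06) kept their sign. APRT BC106894 had 13.68 in SET8 array 1, above its mean of 13.63 in Wnt3a medium. Its negative difference therefore turns without SET8 array 2. Causes were not tested. No paired design is stated, each group has 2 arrays, and all values rest on a single cell line and shRNA label.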
